A study of Mus musculus with 8 samples.

Results

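Apolipoproteins and secreted carrier proteins are the classic products of the visceral endoderm, the epithelium that surrounds the early mouse embryo. Of the 52636 genes in the count table, 10 were followed here. They were taken by symbol from a list: Apoa1, Apoa4, Apob, Apoe, Apom, Apoc2, Ttr, Afp, Rbp4 and Trf. All 10 were found, and 9 passed the filter on low counts; Apoc2 did not. In clone 4 all 9 tested genes stood higher in both 4OHT libraries than in both vehicle libraries, as did 23.7% of all tested genes. None of the 9 passed the test there. In clone 8 all 9 had lower fitted values after 4OHT, and 4 passed the test, against 8.6% of all tested genes called lower. The difference between the clones' responses passed the test for 7 of the 9, against 1.75% of all tested genes called lower. Whether the 9 passed depended on single libraries.

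RNA was sequenced from the epiblast, the embryo's pluripotent epithelium, in 8 libraries at embryonic day 5.5 (E5.5). All embryos had the genotype Sox2Cre;CRAFR26 and came from the line cRAFR26, made by injecting embryonic stem cells that carry a CRAF construct into morulae. The construct turns on the kinase ERK when tamoxifen is given. Treatment and clone (clone 4 and clone 8, the targeted cell clones behind the animals) gave 4 groups of 2 libraries each. The 4OHT groups were cultured in IVC2 medium with 250 nM 4-hydroxytamoxifen (4OHT) for 4 h. The vehicle groups were labelled as 4 h in ethanol, but their titles and time label read 0 h, so culture time may also differ between the groups. Extraembryonic layers were removed by microdissection after culture, and 10 pooled epiblasts gave the 7 ng of RNA used for each library. Sox2Cre is known to act in the epiblast and not in the visceral endoderm. Nothing in the labels says that the replicate pools came from separate litters, so p-values measure only the spread between these samples.

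Before a liver exists, the visceral endoderm takes up maternal nutrients at its apical surface, assembles lipoproteins, and secretes lipid, retinol, thyroid hormone and iron carriers toward the epiblast and the surrounding fluid. Apob is the structural protein of the large triglyceride-rich particles, onto which lipid is loaded in the endoplasmic reticulum. Apoa1 and Apoa4 belong to smaller, high-density particles, Apoe is a ligand of lipoprotein receptors, and Ttr and Rbp4 circulate together. Hnf4a, Foxa2 and Gata factors are known regulators of these genes in endoderm and liver.

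Promoters of the 10 genes were looked up in RefSeq (GRCm38.p6) to show where such factors' motifs lie; 8 had an entry, and Ttr and Trf did not. Each entry runs from 250 bases before to 50 bases after the start site. The promoters of Afp (chr5:90490464-90490763, plus strand) and Apob (chr12:7977427-7977726, plus strand) are shown 5′ to 3′ because they held the most motif matches, 2 each. Capitals mark the matches.

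Afp: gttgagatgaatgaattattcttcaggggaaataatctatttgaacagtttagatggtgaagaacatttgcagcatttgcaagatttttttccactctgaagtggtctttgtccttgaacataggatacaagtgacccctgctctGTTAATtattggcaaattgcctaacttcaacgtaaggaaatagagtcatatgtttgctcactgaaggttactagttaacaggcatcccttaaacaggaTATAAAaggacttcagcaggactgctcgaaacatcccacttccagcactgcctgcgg

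Apob: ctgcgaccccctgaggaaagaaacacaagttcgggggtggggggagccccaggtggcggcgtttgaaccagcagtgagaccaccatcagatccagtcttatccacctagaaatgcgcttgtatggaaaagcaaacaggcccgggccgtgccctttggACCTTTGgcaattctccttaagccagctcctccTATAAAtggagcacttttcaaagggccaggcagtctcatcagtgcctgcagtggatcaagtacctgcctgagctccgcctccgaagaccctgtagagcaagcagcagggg

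In Afp the first capitals, GTTAAT, are an HNF1 half-site. The second are a TATA box, searched as the letters TATAAA, which ended 2 bases before the RefSeq start and lay 30 to 25 bases before the GENCODE start of the gene. In Apob the capitals are ACCTTTG, the reverse strand of the HNF4A-type motif CAAAGGT, and a TATA box that lay 31 to 26 bases before the GENCODE start. Both strands were searched, and no 2 matches overlapped. GTTAAT was held by 2 of the 8 promoters (Afp and Apoc2) and by 7.10% of 32851 mouse promoters. CAAAGGT was held by 1 (Apob) and by 4.09% of all. TGTTTAC, a FOXA motif, was held by 1 (Rbp4) and by 3.65% of all. TATAAA was held by 2 (Afp and Apob) and by 13.6% of all. CAAAGTC, another HNF4A-type motif, and AGATAA, 1 form of the GATA factor motif, had no match in the 8 windows, against 4.44% and 11.2% of all promoters. No other form of the GATA factor motif was searched. The RefSeq start lay 249 bases inside the GENCODE gene for Apom and 148 bases inside it for Apoa4. Their windows thus lay mostly within the genes, and a missing match there says little about the bases before the GENCODE start. A match describes letters and shows no binding.

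The vehicle libraries held 33.3 to 38.0 M counts (M, mega) and the 4OHT libraries 56.4 to 72.5 M, so depth differed with treatment without overlap. Levels are therefore given as CPM, the reads of a gene per 1 M reads after TMM scaling, and all 9 tested genes had at least 43 counts in every library. Calls required that the Benjamini-Hochberg adjusted p of edgeR's quasi-likelihood test, over 18321 genes, was below 0.05. Sampling noise did not account for the spread within groups: chi-square divided by its degrees of freedom was 21.3 to 68.1. The widest pair was that of 4OHT clone 8. Differences of the 9 genes, and differences or calls in the gene lists, are given below with and without each of its libraries.

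The labelled tissue was checked by its markers. The 10 epiblast markers summed to 4614 to 5773 CPM in all libraries. The 12 visceral endoderm markers summed to 728 to 2713 CPM, and none was at 0 in any library. The 10 markers of extraembryonic ectoderm, the trophoblast layer next to the epiblast, summed to 174 to 647 CPM. Markers of both extraembryonic layers were thus detected in libraries labelled epiblast. In such bulk RNA, fewer cells of a type and less RNA per cell cannot be told apart.

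Per kilobase of exon, mean levels over the 8 libraries ran across more than 2 orders of magnitude. Apoe was highest at 491 ± 213 CPM per kb (SD, n = 8), followed by Apoa1 at 281 ± 157 (SD, n = 8). Ttr at 139 ± 88.7 and Apom at 126 ± 76.7 (SD, n = 8) came next. Each SD runs over groups that differ, so it does not measure a difference between genes, and the order of the genes was not tested. Rbp4 stood at 45.1 ± 26.3, Afp at 15.3 ± 9.52 and Apoa4 at 13.7 ± 8.34 CPM per kb (SD, n = 8). Apob had 5.63 ± 3.10 and Trf 1.05 ± 0.603 CPM per kb (SD, n = 8), and Apoc2 had 0.0416. Within the summed CPM of the 10 genes, Apoe took 49.5 to 67.8% and Apoa1 13.6 to 22.2% in every library. The share of Ttr ran from 4.94 to 11.4% and that of Afp from 1.10 to 4.20%. The mean CPM of Apoe, not scaled by length, exceeded that of 99.5% of tested genes, and that of Trf exceeded 41.5%.

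**Figure D1:**
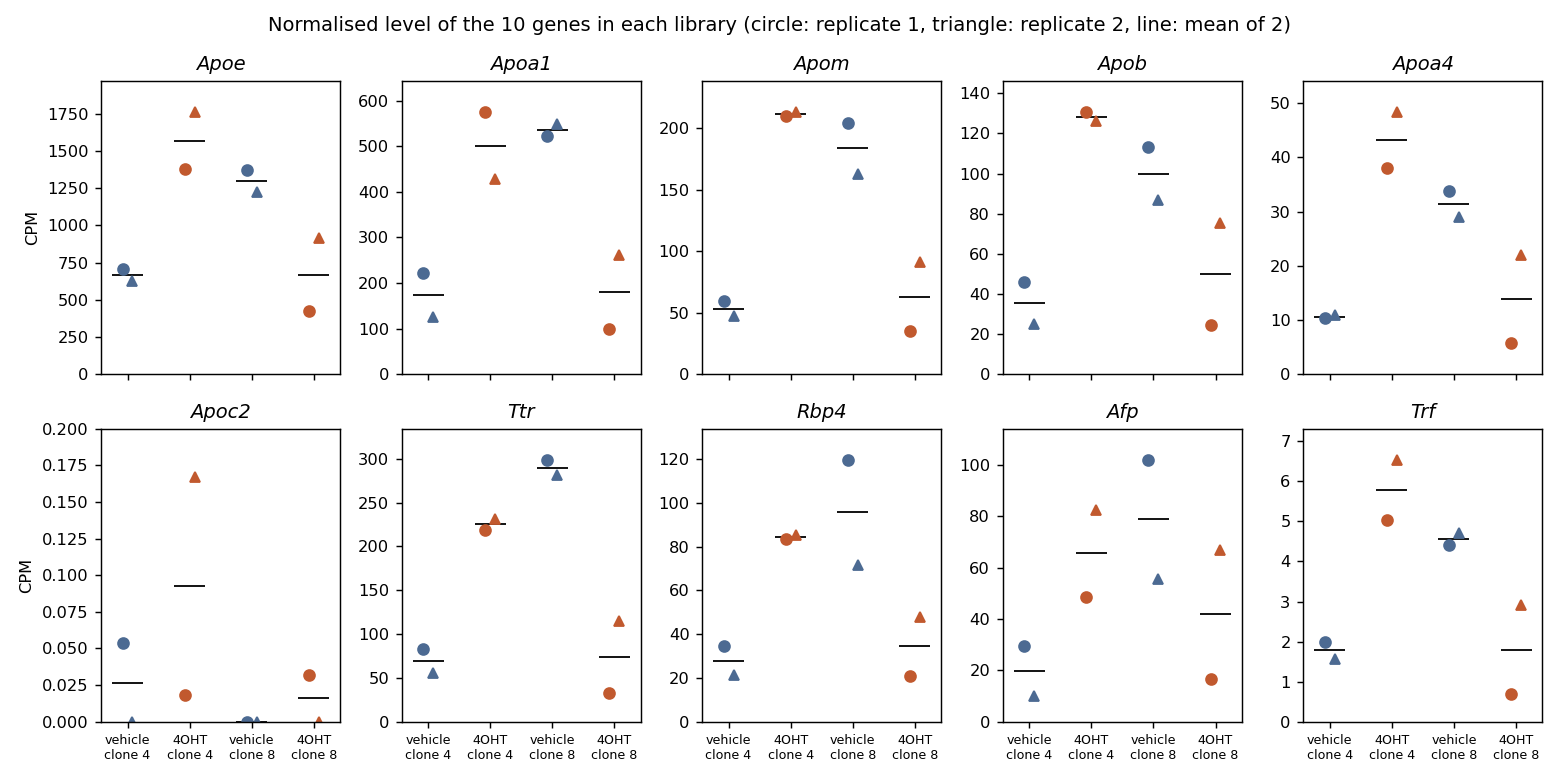
Level of each of the 10 genes in CPM (vertical axis, linear from 0) in the 4 groups, with 1 point per library and a line at the mean of each pair. Vehicle clone 4 and 4OHT clone 8 are the lower groups and 4OHT clone 4 and vehicle clone 8 the higher ones for the 9 tested genes; Apoc2 is near 0 throughout.

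Apoe (7, 19696109-19699188, minus strand, GRCm38), the receptor ligand, had 704 and 627 CPM in vehicle clone 4 and 1380 and 1760 CPM in 4OHT clone 4. In clone 8 it had 1372 and 1226 CPM in vehicle and 423 and 914 CPM after 4OHT. The order of the treatments was thus opposite in the clones, with no overlap in either. The log2 difference, 4OHT minus vehicle, was 1.24 (SE 0.29, adjusted p 0.166) in clone 4 and -0.96 (SE 0.29, adjusted p 0.0513) in clone 8. The responses differed by -2.20 (SE 0.41, adjusted p 0.0357), clone 8 minus clone 4.

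Apoa1 (9, 46228580-46230466, plus strand), the main protein of high-density lipoprotein, had 221 and 126 CPM in vehicle clone 4 against 574 and 428 CPM in 4OHT clone 4. In clone 8, vehicle libraries had 522 and 548 CPM and 4OHT libraries 99.9 and 262 CPM. The vehicle libraries of clone 8 were as high as the 4OHT libraries of clone 4. Clone 4 gave a log2 difference of 1.53 (SE 0.40, adjusted p 0.206), and in clone 8 Apoa1 fell by 1.56 (SE 0.40, adjusted p 0.0308). The difference of the responses was -3.09 (SE 0.57, adjusted p 0.0357).

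Apoa4 (9, 46240696-46243459, plus strand) lies in the same gene cluster and encodes an apolipoprotein of lipid-absorbing epithelia. It had 10.4 and 10.9 CPM in vehicle clone 4 and 38.1 and 48.3 CPM in 4OHT clone 4. In clone 8 the values were 33.9 and 29.0 CPM in vehicle and 5.68 and 22.0 CPM after 4OHT. The vehicle replicates were close in both clones, whereas the 4OHT replicates of clone 8 were 3.87-fold apart. The log2 differences were 2.02 (SE 0.49, adjusted p 0.171) in clone 4 and -1.19 (SE 0.48, adjusted p 0.117) in clone 8, and that between the responses was -3.21 (SE 0.68, adjusted p 0.0470). The 2 antisense or unclassified genes that overlap Apoa4 on the other strand had at most 7 counts in any library.

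Apob (12, 7977648-8016835, plus strand), of which each particle carries 1 copy, had 45.9 and 25.1 CPM in vehicle clone 4 and 130 and 126 CPM in 4OHT clone 4. In clone 8 it had 113 and 86.7 CPM in vehicle and 24.7 and 75.2 CPM after 4OHT. No overlap occurred between treatments in either clone, but in clone 8 the gap between the nearest libraries was small. Log2 differences were 1.85 (SE 0.45, adjusted p 0.173) in clone 4 and -1.0 (SE 0.44, adjusted p 0.149) in clone 8. Between the responses the difference was -2.86 (SE 0.63, adjusted p 0.0494), which just passed.

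Apom (17, 35128997-35132050, minus strand) encodes a lipocalin that carries sphingosine 1-phosphate on lipoproteins. Vehicle clone 4 had 59.6 and 47.0 CPM, and 4OHT clone 4 had 210 and 213 CPM. Vehicle clone 8 had 204 and 163 CPM, and 4OHT clone 8 had 34.9 and 91.2 CPM. The higher groups of the clones were at nearly the same level. Of the 9 genes, Apom had the lowest adjusted p in clone 4 (0.0816, log2 difference 1.99, SE 0.36). In clone 8 it fell by 1.54 (SE 0.36, adjusted p 0.0223), and the responses differed by -3.53 (SE 0.51, adjusted p 0.0232).

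Apoc2 (7, 19671579-19677941, minus strand), the cofactor of lipoprotein lipase, was barely detected. It had 0 counts in 4 libraries, 1 or 2 counts in 3, and 12 counts (0.167 CPM) in 4OHT clone 4 replicate 2. A count of 0 in those libraries allows up to 0.0501 to 0.0904 CPM. Gm44805, a protein-coding gene model that overlaps Apoc2 on the same strand, had 0 counts in all libraries, and how the counting treated reads shared by both is not given. Fitted without the expression filter, Apoc2 had adjusted p-values of 0.703 to 1 in the 6 comparisons made.

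Ttr (18, 20665280-20674321, plus strand) encodes transthyretin, which carries thyroid hormone and binds Rbp4. It had 83.0 and 55.9 CPM in vehicle clone 4 and 219 and 232 CPM in 4OHT clone 4. In clone 8 it had 299 and 281 CPM in vehicle and 32.5 and 115 CPM after 4OHT. The vehicle libraries of clone 8 were its highest, above the 4OHT libraries of clone 4. The log2 difference in clone 4 was 1.70 (SE 0.46, adjusted p 0.217). In clone 8 Ttr fell by 1.97 (SE 0.46, adjusted p 0.0227), the largest fitted change among the 9 genes there. The responses differed by -3.67 (SE 0.65, adjusted p 0.0331).

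Rbp4 (19, 38116629-38125281, minus strand), the retinol carrier, had 34.4 and 21.3 CPM in vehicle clone 4 and 83.5 and 85.3 CPM in 4OHT clone 4. In clone 8 the values were 120 and 71.7 CPM in vehicle and 20.9 and 47.9 CPM after 4OHT. Its treatments were thus also in opposite order in the clones. The log2 difference in clone 4 was 1.60 (SE 0.39, adjusted p 0.171), in clone 8 it fell by 1.48 (SE 0.39, adjusted p 0.0324), and the responses differed by -3.08 (SE 0.55, adjusted p 0.0331).

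Afp (5, 90490737-90508907, plus strand), the fetal relative of albumin, was the least even. Vehicle clone 4 had 29.6 and 10.2 CPM, 4OHT clone 4 had 48.8 and 82.6 CPM, vehicle clone 8 had 102 and 55.8 CPM, and 4OHT clone 8 had 16.5 and 67.0 CPM. In clone 8 the treatments overlapped, and in 3 of the 4 groups, all but 4OHT clone 8, its replicates lay further apart than those of the other 8 tested genes. No comparison of Afp passed: the log2 differences were 1.72 (SE 0.66, adjusted p 0.427) in clone 4, -0.92 (SE 0.64, adjusted p 0.353) in clone 8 and -2.64 (SE 0.92, adjusted p 0.141) between the responses. Alb, the albumin gene that lies 14134 bases upstream of Afp, had at most 2 counts in any library.

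Trf (9, 103204001-103230444, minus strand), the iron carrier transferrin, was the lowest of the tested genes. It had 1.98 and 1.58 CPM in vehicle clone 4, 5.04 and 6.53 CPM in 4OHT clone 4, 4.40 and 4.70 CPM in vehicle clone 8, and 0.690 and 2.90 CPM in 4OHT clone 8. The vehicle pairs were tight and did not overlap with the 4OHT pair of the same clone. The log2 differences were 1.70 (SE 0.55, adjusted p 0.317) and -1.34 (SE 0.54, adjusted p 0.119), and the responses differed by -3.04 (SE 0.77, adjusted p 0.0702). Gm20425, which overlaps nearly all of Trf on the same strand, had 0 counts in all libraries.

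Across the 9 tested genes, 0 were called in clone 4 by edgeR, where 0.0382% of all tested genes were called. At an unadjusted p under 0.05 all 9 were higher in clone 4, where 1814 of all 18321 genes had such a p in either direction. DESeq2 called 3 of the 9 and 468 of all genes. Their fitted log2 differences ran from 1.24 to 2.02 with a median of 1.70, against a median of -0.0047 over all genes. Both 4OHT libraries stood above both vehicle libraries for 9 of 9, which held for 23.7% of all tested genes. With either 4OHT library of clone 8 left out of the shared fit, the differences in clone 4 were nearly unchanged, at 1.24 to 2.02. Leaving out other libraries gave differences between 1.05 and 2.70. Whether the 9 passed, and how many genes did in all, depended on the library left out. A fit of the 4 libraries of clone 4 alone called 6 of the 9 and 197 of 16743 genes.

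In clone 8, 4 of the 9 fell (Apoa1, Apom, Ttr and Rbp4), where 8.6% of all tested genes were called lower and 8% higher. The median log2 difference of the 9 was -1.34, against 0.069 over all genes. Both 4OHT libraries were below both vehicle libraries for 8 of 9, all but Afp, which held for 28.3% of tested genes. Without 4OHT clone 8 replicate 1 the differences were -1.33 to -0.24, and without 4OHT clone 8 replicate 2 they were -3.16 to -1.63. Without vehicle clone 8 replicate 1 they were -1.95 to -0.43, and without vehicle clone 8 replicate 2 they were -2.04 to -1.07. Whether the 9 passed, and how many genes did in all, depended on the library left out. A fit of the 4 libraries of clone 8 alone called none of the 9 and 3 of 17556 genes. In that fit 4844 genes had an unadjusted p under 0.05.

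The difference of the responses, clone 8 minus clone 4, was negative for all 9 genes and called for 7 (Apoa1, Apoa4, Apob, Apoe, Apom, Ttr and Rbp4). Among all tested genes, 1.75% were called lower and 1.08% higher. Afp and Trf did not pass. The median difference was -3.08, against 0.054 over all genes. The crossed order, above vehicle in clone 4 and below it in clone 8 with no overlap, held for 8 of the 9 and for 6.74% of tested genes. Without 4OHT clone 8 replicate 1 the differences were -3.03 to -1.74, and without replicate 2 they were -4.86 to -2.86. Without vehicle clone 8 replicate 2 they were -3.74 to -2.31. With any library of clone 4 or vehicle clone 8 replicate 1 left out, they lay between -4.01 and -2.01. Whether the 9 passed, and how many genes did in all, depended on the library left out. With library totals in place of TMM scaling, all genes shifted by 0.12 (log2) in clone 8 and by 0.11 between the responses, and 6 of the 9 were called.

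**Figure D2:**
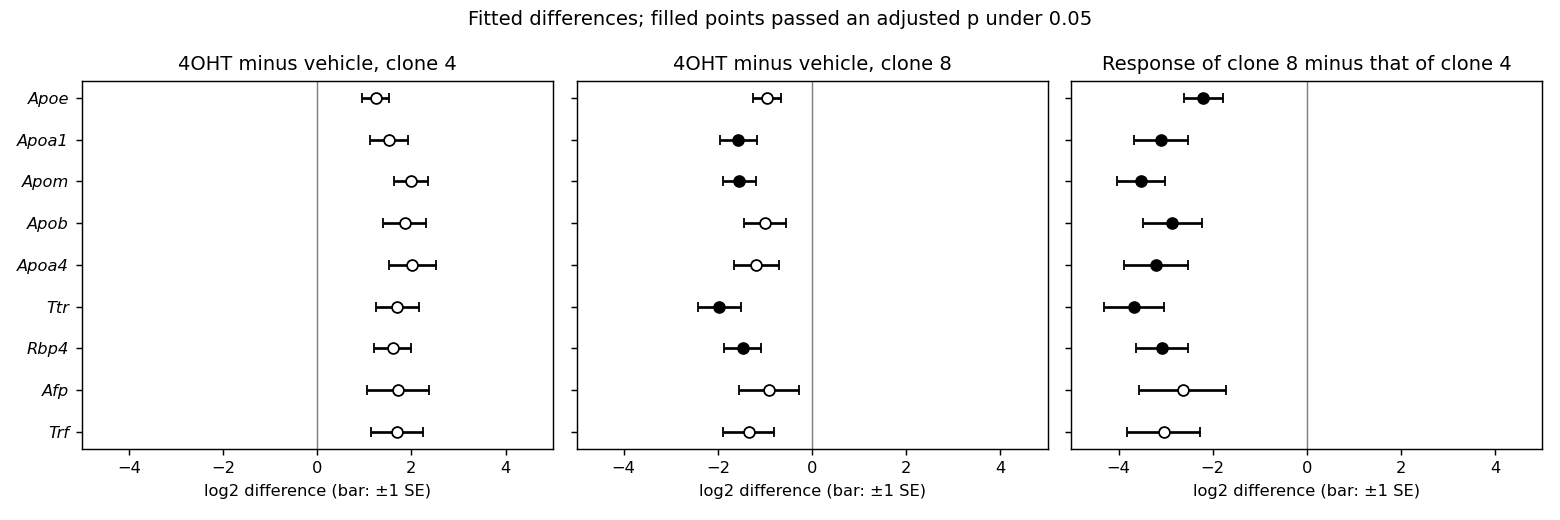
Fitted log2 differences (horizontal axis) of the 9 tested genes with bars of 1 SE, for 4OHT minus vehicle in clone 4, in clone 8, and for the response of clone 8 minus that of clone 4. Filled points passed an adjusted p under 0.05: 0 in clone 4, 4 in clone 8 and 7 between the responses.

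The clones were also compared within each treatment, since they differed without 4OHT. Both vehicle libraries of clone 8 were above both of clone 4 for 9 of 9 genes, as for 29.7% of tested genes. Called higher in clone 8 were 4 of the 9 (4.06% of all genes higher, 4.31% lower): Ttr by 2.06 on the log2 scale (SE 0.46, adjusted p 0.0329), Apom by 1.78 (SE 0.36, adjusted p 0.0267), Rbp4 by 1.78 (SE 0.39, adjusted p 0.0317) and Apoa1 by 1.63 (SE 0.40, adjusted p 0.0425). The other 5 had log2 differences of 0.97 to 1.99. These comparisons share the vehicle libraries with the responses above. Leaving out 1 library gave differences between 0.89 and 2.97. Whether the 9 passed, and how many genes did in all, depended on the library left out.

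After 4OHT the order was reversed. Both 4OHT libraries of clone 8 were below both of clone 4 for 8 of 9 genes, all but Afp, as for 24.2% of tested genes. None of the 9 passed edgeR's test (0.142% of all genes were called lower). An unadjusted p under 0.05 was found for 8 of the 9 and for 3296 of all 18321 genes. DESeq2 called 3 of the 9 and 1015 of all genes. The log2 differences, clone 8 minus clone 4, ran from -1.75 for Apom (SE 0.36, adjusted p 0.0735) to -0.65 for Afp (SE 0.64, adjusted p 0.644). Without 4OHT clone 8 replicate 2 they ran from -3.07 for Trf to -1.90 for Apoe. Without replicate 1 they ran from -1.21 for Apom to 0.027 for Afp.

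With both clones in 1 additive fit, the opposite responses offset each other. The log2 differences, 4OHT minus vehicle, ran from -0.14 for Ttr (SE 0.78) to 0.42 for Apob (SE 0.61), with adjusted p-values of 0.758 to 0.992. None of the 9 was called, none had an unadjusted p under 0.05, and DESeq2 called none; 0.00546% of all genes were called. Clone was a term of that fit, but the term does not take up a response that differs between the clones. The sign of each of the 9 changed with the library left out, and that of Apoa1 and Rbp4 also with other settings.

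The replicates of 4OHT clone 8 stood apart from those of the other groups in these genes. All 9 were at least 2-fold higher in replicate 2 than in replicate 1, from 2.16-fold for Apoe to 4.21-fold for Trf in CPM. On log2 CPM with a prior count of 2, 18.5% of all tested genes were apart by at least 2-fold in either direction. In vehicle clone 4 only Afp was, at 2.91-fold (10.8% of all genes). In vehicle clone 8 none was (12.2% of all genes), nor was any in 4OHT clone 4 (11.7% of all genes). Replicate 1 of 4OHT clone 8 was the lowest of the 8 libraries for 8 of the 9 genes, all but Afp. The library with the lowest Afp was vehicle clone 4 replicate 2.

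**Figure D3:**
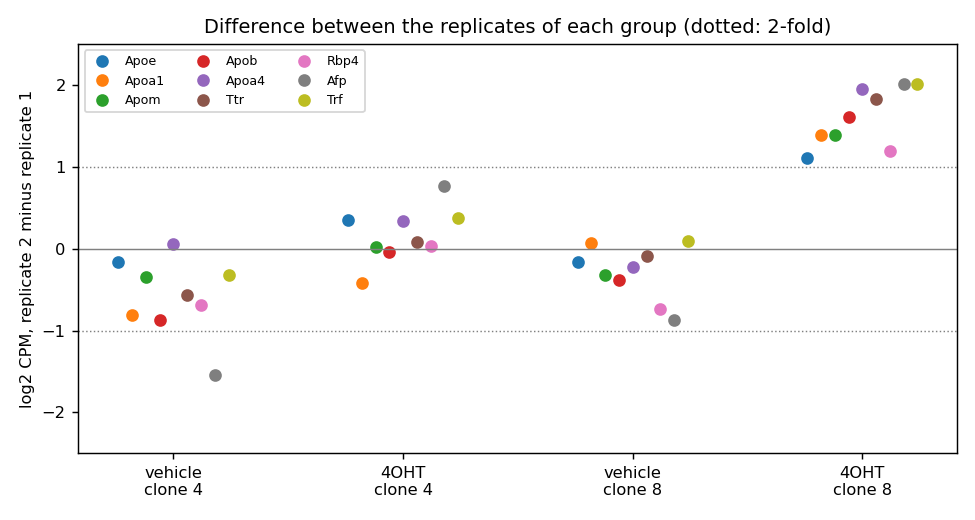
Log2 CPM (prior count of 2) of replicate 2 minus replicate 1 (vertical axis) for each of the 9 tested genes in each group, with dotted lines at 2-fold. All 9 points of 4OHT clone 8 lie above the upper line, between 1.11 and 2.02; 1 point (Afp) of vehicle clone 4 lies below the lower line.

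The 9 genes varied together over the 8 libraries. Pearson's r of log2 CPM was highest between Apoe and Apoa4 at 0.991 and lowest between Afp and Trf at 0.819, over 36 pairs. With the mean standardised profile of the 9, which each gene helps to set, r ran from 0.905 for Afp to 0.992 for Apom. These libraries share clones, treatments and replicate pools, so r describes the pattern and was not tested. The size of the swing differed between genes: the highest library was 4.16-fold above the lowest for Apoe, 5.29-fold for Apob and 10.0-fold for Afp.

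The summed visceral endoderm markers moved with the 10 genes in clone 4, whereas in clone 8 their sums overlapped between the treatments. In vehicle clone 4 the markers summed to 728 to 1015 CPM and the 10 genes to 924 to 1190 CPM. In 4OHT clone 4 the markers summed to 2207 to 2713 CPM and the genes to 2690 to 2982 CPM. In 4OHT clone 8 the sums were 828 to 1237 CPM for the markers and 658 to 1598 CPM for the genes. In vehicle clone 8 the markers summed to 1025 to 1185 CPM and the genes to 2466 to 2770 CPM, so that the genes' sum over the markers' sum was 2.70 and 2.08 there and 0.795 to 1.29 in the other 6 libraries. The markers' sum is carried by Dab2 and Rhox5, the markers of highest level, and the markers one by one gave another picture. Of the 12, 11 had higher fitted values in vehicle clone 8 than in vehicle clone 4. An unadjusted p under 0.05 was found for 9 of the 12 and for 4704 of all 18321 genes. The median log2 difference of the 12 was 1.31, against 1.63 for the 9 genes. The mean log2 CPM of the 12 was 4.39 and 3.33 in vehicle clone 4 and 5.03 and 5.24 in vehicle clone 8.

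Dab2 and Rhox5 were singled out after their values were seen, with Amn and Cubn. Dab2, an endocytic adaptor, had 272 and 187 CPM in vehicle clone 4, 896 and 1211 in 4OHT clone 4, 233 and 365 in vehicle clone 8, and 143 and 391 in 4OHT clone 8. Rhox5, a homeobox gene also known from trophoblast, had 496 and 382 CPM in vehicle clone 4 but 307 and 318 in vehicle clone 8, its lowest values. Its r with the profile of the 9 genes was 0.0041, and that of Dab2 was 0.75. Amn, the membrane anchor of the cubilin receptor, followed the 9 genes at r = 0.98, and its ligand-binding partner Cubn at 0.93.

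By test, all 12 visceral endoderm markers had positive differences in clone 4 (median 2.12), with none called by edgeR. An unadjusted p under 0.05 was found there for 11 of the 12 and for 1814 of all 18321 genes. In clone 8, Amn (log2 difference -1.25, adjusted p 0.0343) and Hnf4a (-1.80, adjusted p 0.0226) fell and Rhox5 rose by 0.58 (adjusted p 0.0204). Of the 12, 10 had negative differences in clone 8, with a median of -0.53 against -1.34 for the 9 genes. That median was -0.11 without 4OHT clone 8 replicate 1 and -1.15 without replicate 2. Between the responses, 5 of 12 were called lower, against 1.75% of all genes. Among them were Amn at -3.33, Cubn at -2.99, Ihh at -3.36 and the transcription factor Hnf4a at -4.39. The median of the 12 was -2.41. It was -2.00 without 4OHT clone 8 replicate 1 and -3.23 without replicate 2. Whether Hnf4a passed in clone 8 depended on the library left out. In vehicle, 4 of the 12 were called higher in clone 8 than in clone 4 (4.06% of all genes): Amn, Cubn, Hnf4a and Ihh. The part of visceral endoderm content in the results for the 10 genes was not tested.

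Other layers gave other patterns. Extraembryonic ectoderm markers summed to 401 to 603 CPM in vehicle clone 4, 540 to 547 in 4OHT clone 4, 174 to 210 in vehicle clone 8, and 513 to 647 in 4OHT clone 8, with none at 0. Among the 10, 6 rose in clone 8 (Bmp4, Bmp8b, Cdx2, Elf5, Tfap2c and Wnt7b), where 8% of all genes were called higher. Between the responses Bmp8b, Tfap2c and Wnt7b were called higher, against 1.08% of all genes. Between the responses 7 of the 10 had positive and 3 had negative differences, from -1.64 to 2.75. The median of the 10 in clone 8 was 1.11 without 4OHT clone 8 replicate 1 and 1.79 without replicate 2. Between the responses it was 0.88 without replicate 1 and 1.48 without replicate 2. Vehicle clone 8 was thus high in the summed secreted carriers and low in the summed trophoblast markers. Against vehicle clone 4, 7 of the 10 trophoblast markers were called lower in clone 8 (4.31% of all genes). The other 3 had positive differences, up to 0.81, and were not called. Epiblast markers summed to 5409 to 5773 CPM in vehicle clone 4, 4629 to 5118 in 4OHT clone 4, 5412 to 5594 in vehicle clone 8, and 4614 to 4718 in 4OHT clone 8, with none at 0. Pou3f1, Pou5f1, Sox2 and Utf1 fell in clone 8, where 8.6% of all genes were called lower. None of the 10 was called between the responses, with 1 at an unadjusted p under 0.05 (4165 of all 18321 genes). Of the 10 epiblast markers, 0 were called in clone 8 without 4OHT clone 8 replicate 2, and without replicate 1, Pou3f1 was called lower between the responses. The part of these layers in the results was not tested.

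**Figure D4:**
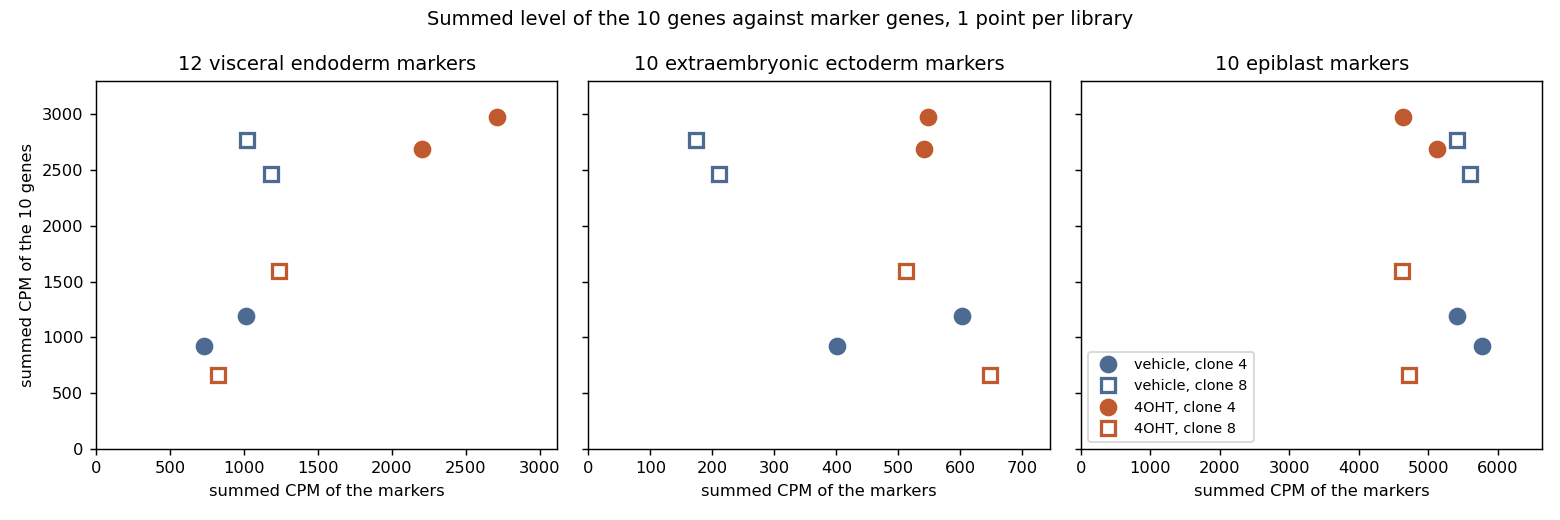
Summed CPM of the 10 genes (vertical axis) against the summed CPM of visceral endoderm, extraembryonic ectoderm and epiblast markers (horizontal axes), with 1 point per library. The vehicle clone 8 libraries have 2466 to 2770 CPM of the 10 genes at 1025 to 1185 CPM of visceral endoderm markers, a marker sum carried by Dab2 and Rhox5, and they have the lowest trophoblast marker sums.

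Markers of further cell types were low. The 10 markers of macrophages and blood summed to 4.40 to 7.22 CPM in 7 libraries and to 24.0 CPM in vehicle clone 4 replicate 1; Adgre1 was at 0 in all. The 6 decidua markers summed to 8.52 to 13.0 CPM, and the 7 parietal endoderm markers to 41.8 to 119 CPM, with the highest sum in 4OHT clone 8. None of these was called between the responses; in clone 8, Nid1, a basement membrane gene, and Ptgs2, with at most 48 counts, rose, but neither was called without 4OHT clone 8 replicate 2.

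Genes of the same pathways were read from lists. Of 11 other apolipoprotein genes, 8 were tested. Called lower between the responses was 1 (1.75% of all genes), Apoc3, at -4.23 (SE 0.93, adjusted p 0.0491). Apoc3, an inhibitor of lipoprotein lipase, lies between Apoa1 and Apoa4, 2466 bases from Apoa1, and its level ran from 0.160 to 2.20 CPM. The median of the 8 was -1.42. It was -1.15 without 4OHT clone 8 replicate 1 and -3.04 without replicate 2. Apoc1, singled out after its values were seen because it is the gene next to Apoe, 3448 bases away, was more even, with a 2.02-fold range over the libraries against 4.16-fold for Apoe. It had 24.7 and 25.6 CPM in vehicle clone 4, 23.2 and 29.1 in 4OHT clone 4, 26.5 and 35.2 in vehicle clone 8, and 17.4 and 29.7 in 4OHT clone 8. The groups overlapped in most cases, and the responses differed by -0.45 (SE 0.37, adjusted p 0.506), whereas Apoe had -2.20. The difference between these neighbours was not tested. Apoh was at 0 in all libraries.

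In lipoprotein assembly and export, 2 of 20 genes were called lower between the responses, as were 1.75% of all genes. Mttp, which loads lipid onto Apob, differed by -2.35 (SE 0.45, adjusted p 0.0386), and Soat2, which makes cholesteryl esters, by -3.18 (SE 0.62, adjusted p 0.0387). Mttp had 36.1 and 25.5 CPM in vehicle clone 4, 109 and 135 in 4OHT clone 4, 52.5 and 59.4 in vehicle clone 8, and 27.6 and 59.5 in 4OHT clone 8. Its 4OHT libraries of clone 4 were far above all others, and the treatments overlapped in clone 8. The median of the 20 was -0.24, near that of all genes. It was -0.28 without 4OHT clone 8 replicate 1 and -0.22 without replicate 2. Dgat2, a triglyceride synthase, rose in clone 8 by 0.81 (adjusted p 0.0129).

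Receptors and uptake genes, through which cells take in lipoproteins, retinol and iron, formed a further list. Of 12, 0 were called between the responses, where 1.75% of all genes were called lower and 1.08% higher. At an unadjusted p under 0.05 there were 2, and 4165 of all 18321 genes. The median was 0.0022, and r with the profile of the 9 genes lay between -0.64 and 0.44. In clone 8, Sort1, a sorting receptor, fell by 1.34 after 4OHT. In vehicle, Tfrc, the transferrin receptor (log2 difference -0.57, adjusted p 0.0389), was lower in clone 8 than in clone 4. Among 14 retinoid and iron genes, 10 were tested. The ferritin chains Fth1 (-0.999, adjusted p 0.0462) and Ftl1 (-0.81, adjusted p 0.0357) were called lower between the responses. In clone 8 both fell, as did Crabp1 and Crabp2, which bind retinoic acid inside cells. Whether Crabp1 and Crabp2 passed there depended on the library left out. Between the responses, the median of the retinoid and iron genes was -0.67 without 4OHT clone 8 replicate 1. Without replicate 2, where 12 were tested, it was -0.48. For the receptors and uptake genes the medians were 0.27 without replicate 1 and -0.11 without replicate 2. Rbp2 was at 0 in all libraries.

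Other plasma proteins, further secreted products of endoderm and liver, formed the last list. Of 20, 16 were tested. All 16 had positive differences in clone 4 (median 1.69), with 0 called. An unadjusted p under 0.05 was found there for 10 of the 16 and for 1814 of all 18321 genes. In clone 8, 13 were negative and 3 positive, with a median of -0.99. That median was -0.49 without 4OHT clone 8 replicate 1 and -2.18 without replicate 2. Between the responses all 16 were negative, with a median of -2.85, and 5 were called lower, against 1.75% of all genes. They were Fgb, a fibrinogen chain, at -3.76, coagulation factor F10 at -3.86, plasminogen (Plg) at -3.57, the trypsin inhibitor Spink1 at -3.07 and Spp2 at -4.24. F10, Fga, Spink1 and Spp2 fell in clone 8, where 8.6% of all genes were called lower. The median between the responses was -2.27 without 4OHT clone 8 replicate 1 and -4.15 without replicate 2. The summed level was 62.9 to 105 CPM in vehicle clone 4, 211 to 261 in 4OHT clone 4, 248 to 275 in vehicle clone 8 and 51.2 to 129 in 4OHT clone 8.

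Across 9152 further genes above the median level, those most like the profile of the 9 genes were sought by Pearson's r over the 8 libraries, as a description. They were Gipc2 (0.985), Ctsh (0.979), Folr1 (0.979), Amn (0.978), Sec62 (0.975), Itm2b (0.974), Atp7b (0.974), Timd2 (0.973), Npl (0.971) and Ctsl (0.971). Spearman's rho for these 10 ran from 0.881 to 0.976. Without the 2 libraries farthest from the median of the profile, 4OHT clone 8 replicate 1 and vehicle clone 4 replicate 2, r was 0.927 to 0.969. Of the 9152 genes, 28 had an r of at least 0.95. Ctsh and Ctsl encode lysosomal proteases, Folr1 a folate receptor and Atp7b a copper transporter. The responses of 9 of the 10 differed by a called amount, from -3.44 for Timd2 to -1.19 for Itm2b. Sec62, a component of the protein translocation channel, did not pass (-0.36, adjusted p 0.202). The profile that picked these 10 itself holds the crossed order of clones and treatments. Negative differences of the responses were thus largely set by the choice and are no separate result.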

How the data were processed

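Data were 8 RNA-seq libraries of E5.5 epiblast. Raw counts by Ensembl gene, in 1 column for each library, are what the authors deposited; the values are whole numbers with differing totals and carry no normalization. Reads passed through bcl2fastq 2.19.1 and STAR 2.5.3a against mm10, per the submitters' processing notes; the counting program, annotation and use of strand are not given in the sources used here, so overlapping and antisense genes are uncertain. Of 52636 identifiers, 52403 matched a symbol in a table of gene names. Genes were kept by filterByExpr (minimum count 10) over the 4 groups, which left 18321. Counts were scaled by TMM and tested with edgeR 4.0.16 (glmQLFit, glmQLFTest) in R 4.3.3, with Benjamini-Hochberg adjustment over all tested genes and a threshold of 0.05. Contrasts within a clone, between clones and of the responses came from 1 model of the 4 groups with a common dispersion trend; the response over both clones came from an additive fit with clone. An SE is the log2 difference divided by the square root of F. Log2 CPM used a prior count of 2. Gene positions are GRCm38 (GENCODE M21); CPM per kb used the union of exons. The procedure was tested on simulated data.

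The members and gene lists were chosen with earlier results of these data known. All 10 members are named. Some list genes are not reported here. List genes are named where called in the interaction or within a clone, with the 10 genes most like the members' profile; other names, including list genes called only between the vehicle groups, were chosen after their values were seen. The settings varied were the scaling (RLE, library totals), the filter (none, or 10 counts in every library), the tool (DESeq2 1.42.0), a replicate block, each library left out, a threshold of 0.01, the robust option, single-clone fits, the mean of the within-clone responses and no clone term. Leaving out the 4OHT libraries of clone 8 for the gene lists was chosen after seeing the data. The lists were not examined with any other library left out, so how their calls fare there is not known.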

Additional observations from a re-analysis of the deposited data

Results flagged for a closer look

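A difference between the clones' 4OHT responses, clone 8 minus clone 4 on the log2 scale, passed the interaction test for the genes given here. Among the 10 genes followed here these were Apoa1 (-3.09), Apoa4 (-3.21), Apob (-2.86), Apoe (-2.20), Apom (-3.53), Ttr (-3.67) and Rbp4 (-3.08). In the related lists they were Apoc3 (-4.23), Mttp (-2.35), Soat2 (-3.18), Fth1 (-0.999), Ftl1 (-0.81), Fgb (-3.76), F10 (-3.86), Spp2 (-4.24), Plg (-3.57) and Spink1 (-3.07). Among visceral endoderm markers they were Hnf4a (-4.39), Amn (-3.33), Cubn (-2.99) and Ihh (-3.36). Among extraembryonic ectoderm markers the differences that passed had the other sign: Tfap2c (2.63), Bmp8b (2.75) and Wnt7b (2.30). Of those 10 markers, 3 had negative differences, which did not pass. Of the genes most like the profile they were Gipc2 (-3.02), Ctsh (-2.86), Folr1 (-2.56), Itm2b (-1.19), Atp7b (-1.70), Timd2 (-3.44), Npl (-3.19) and Ctsl (-1.63). Those genes were picked by their likeness to the profile, so their negative differences were largely set by the choice.

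A library far from the others of its treatment was sought in 44 values, and 2 passed the limit where 2.2 would by chance. The summed macrophage and blood markers were 24.0 CPM in vehicle clone 4 replicate 1, the highest of the vehicle libraries. The total of 4OHT clone 4 replicate 2 was 72.5 M counts, the highest of the 4OHT libraries.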

How the results depend on the processing

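Of the 9 tested genes, all kept their direction under every alternative run in clone 4 (153 values), in clone 8 (153), between the responses (144 values, -4.86 to -1.74) and between the vehicle groups (135). Over both clones 27 of 162 values reversed. Apoa1 stood at 0.047 with library totals and 0.0065 without the filter, and Rbp4 at -0.056 without a clone term. Leaving out 1 library gave the both-clone ranges -0.19 to 1.01 for Afp, -0.64 to 0.64 for Apoa1, -0.15 to 1.13 for Apoa4, -0.15 to 1.05 for Apob, -0.22 to 0.60 for Apoe, -0.47 to 0.98 for Apom, -0.55 to 0.70 for Rbp4, -0.37 to 0.84 for Trf and -0.89 to 0.68 for Ttr. In the 4OHT groups, clone 8 minus clone 4, Afp ran from -2.00 to 0.027.

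Counts of calls moved far more. Without the expression filter, which tested 30973 genes, all 9 were called in clone 4, in clone 8, between the vehicle groups and between the 4OHT groups. In clone 8, 4263 of the 30973 genes were then called. In the other comparisons the genes called in all were 1337 over both clones, 728 in clone 4, 2114 between the responses, 2901 between vehicle groups and 1414 between 4OHT groups. DESeq2 called 1053, 468, 1864, 3064 and 1015 genes in these, and 3 of the 9 in clone 4 and 3 between the 4OHT groups. With at least 10 counts in every library, 0 genes were called over both clones, 78 in clone 4 (1 of the 9) and 150 between 4OHT groups. A threshold of 0.01 left 0 genes over both clones, 0 in clone 4, 272 in clone 8, 0 between the responses, 28 between vehicle groups, 0 between 4OHT groups and none (0) of the 9 anywhere. Clone 4 alone gave 197 genes and 6 of the 9, and clone 8 alone 3 genes and 0 of the 9. The mean of the within-clone responses gave 1063 genes, the robust option 2 of the 9 between vehicle groups, and library totals 19 genes between 4OHT groups. Library totals also moved the split of calls: 2102 of 3176 were higher in clone 8 (1465 of 3041 with TMM), and 214 of 411 between the responses (198 of 519 with TMM). Leaving out 1 library gave 0 to 1 genes over both clones, 0 to 267 in clone 4 (0 to 8 of the 9), 0 to 3179 in clone 8 (0 to 9), 0 to 1205 between the responses (0 to 9), 0 to 2518 between vehicle groups (0 to 9) and 0 to 704 between 4OHT groups (0 to 8). The causes were not tested.

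The main fits treated the libraries as unpaired. Deviations of same-numbered libraries correlated at 0.095 in clone 4 and -0.010 in clone 8. With 2 libraries a group, their deviations mirror each other, so these values cannot show whether replicate numbers pair the libraries. With the replicate block, 0 genes were called over both clones, 0 in clone 4, 2897 in clone 8 (3 of the 9) and 451 between the responses (5 of the 9). Clone contrasts could not be fitted with it, since the pairs lie within clones. Depth limited only Apoc2, which had at most 12 counts in a library.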
